A study of Mus musculus with 4 samples.

Results

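The genes that make, carry, break down and sense retinoic acid were read out in mouse embryonic stomachs at E15.5, a stage counted in days of gestation. Members were taken by symbol from a fixed list, and all 9 were found among the 51098 genes of the table: Rdh10, Aldh1a1, Aldh1a2, Aldh1a3, Crabp1, Cyp26b1, Rara, Rarb and Rarg. RNA sequencing of stomachs compared 2 groups of 2 samples, numbered 2 and 3 in each group. The group called Fgf9_null here has the genotype Fgf9LacZ/LacZ, in which both copies of the fibroblast growth factor gene Fgf9 carry a LacZ insert. The control group, Fgf9_het, is Fgf9LacZ/+, so it carries 1 copy of the same allele, although the sample titles abbreviate it as WT. How many embryos went into a sample is not given in the sources used here, and the treatment field calls the heterozygous group the control.

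Retinoic acid is a small signal made from vitamin A in a pair of oxidation steps. Rdh10 turns retinol into retinal, and the retinaldehyde dehydrogenases encoded by Aldh1a1, Aldh1a2 and Aldh1a3 turn retinal into the acid. The acid binds the nuclear receptors encoded by Rara, Rarb and Rarg, which sit on DNA together with an RXR partner, and the Cyp26 enzymes clear it by oxidation. In the embryo the pathway is known for patterning along the body axis and for the growth of the posterior foregut, from which the stomach and lungs arise.

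The 4 named columns held only 2 independent libraries, and this comes before every result. Column totals were 19537211 and 22713416 estimated counts for Fgf9_null replicates 2 and 3, and 19269851 and 22425865 for Fgf9_het replicates 2 and 3. Fgf9 itself had 133 counts in both replicate 2 columns and 131 in both replicate 3 columns, so it did not separate the genotypes. That count checks no genotype, since sequence retained in the targeted allele could still be counted. Over all genes, columns that share a number gave a chi-square per degree of freedom of 4.46 (number 2) and 4.64 (number 3), and columns of different number 5.5 to 10.6. With Rn7s1, Rn7s6, Gm19220 and Gm26461 left out, 4 genes chosen after their values were seen, it was 0.000792 and 0.00385 within a number and 5.49 or 5.5 otherwise. Apart from those 4 genes, a pair sharing a number thus differed by less than sampling noise, and each pair was counted as 1 sample. They are called library 2 and library 3, each is present under both genotype labels, and the genotype of neither is settled. Markers of stomach mesenchyme, smooth muscle and columnar epithelium all reached 1 CPM, the unit of depth-scaled counts, in library 2 and library 3 alike. Of the 4 lung markers none reached that level, whereas 3 of the 6 pancreas markers did (Pdx1, Cela1 and Gcg). Ptf1a and Ins2, of the same list as these 3, had no counts.

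Levels of the 3 retinaldehyde dehydrogenases can be compared only if their reads can be told apart. Their coding sequences, and that of the neighbouring gene Aldh1a7, were therefore aligned with Aldh1a1. A stretch of 60 bases in exon 9 of each gene, around the codon of the catalytic cysteine, is shown 5′ to 3′ on the coding strand from the GENCODE M21 transcripts of GRCm38, with capitals at every base that differs from Aldh1a1.
Aldh1a1: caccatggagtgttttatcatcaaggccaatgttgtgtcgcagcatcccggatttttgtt
Aldh1a7: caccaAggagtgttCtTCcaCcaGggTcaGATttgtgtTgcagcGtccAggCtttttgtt
Aldh1a2: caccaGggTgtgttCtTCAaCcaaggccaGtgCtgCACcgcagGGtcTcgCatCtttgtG
Aldh1a3: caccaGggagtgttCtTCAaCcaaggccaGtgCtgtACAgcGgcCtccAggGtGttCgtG
The stretches lie at chr19:20630689-20630748 on the plus strand (Aldh1a1), chr19:20708252-20708311 on the minus strand (Aldh1a7), chr9:71283401-71283460 on the plus strand (Aldh1a2) and chr7:66406076-66406135 on the minus strand (Aldh1a3). They differ from Aldh1a1 at 14 bases in Aldh1a7 and at 18 bases each in Aldh1a2 and Aldh1a3.

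Over the whole coding sequence, Aldh1a1 was 91.6% identical to Aldh1a7 but 68.8% identical to Aldh1a2 and 67.4% to Aldh1a3. Of the 4934 different 31-base words in Aldh1a1 transcripts, 281 (5.7%) also occurred in Aldh1a7, and none occurred in any other gene. For Aldh1a7 the same 281 words were 13.8% of its total. Aldh1a2 shared no 31-base word with another gene, and Aldh1a3 shared 2.26% of its words, with Casc4 as the gene sharing the most. Counts of Aldh1a2 were thus free of this ambiguity, whereas the split of reads between Aldh1a1 and Aldh1a7 depends on the authors' counting.

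Rdh10, which opens the pathway, was measured at a middle level. It had 605 and 744 counts in Fgf9_null replicates 2 and 3 and the same 605 and 744 counts in Fgf9_het. Its level was 32.1 ± 1.26 CPM (SD, n = 2 libraries, as for all levels below). The gene lies on chromosome 1, from 16105774 to 16133734 on the plus strand (GRCm38, as for all positions). Because bulk tissue was sequenced, fewer cells of a type and less RNA per cell cannot be told apart for any gene here.

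Aldh1a2 had the most reads of the retinaldehyde dehydrogenase members. This enzyme makes most of the retinoic acid of the early embryo and is known from mesenchyme and from mesothelium, the outer lining of the organ. Aldh1a2 (chromosome 9, 71215789 to 71296243, plus strand) had 934 and 1070 counts under the Fgf9_null label and 934 and 1071 under the Fgf9_het label, or 47.8 ± 0.498 CPM. Its 2 libraries, at 48.1 and 47.4 CPM, lay within each other's exact 95% Poisson intervals (45.1 to 51.3 and 44.6 to 50.3 CPM; intervals here reflect counting error alone). All 6 mesothelial markers exceeded 1 CPM in both libraries and summed to 161 and 150 CPM in libraries 2 and 3. Among them Muc16 stood at 49.7 ± 4.58 CPM and Msln at 43.4 ± 0.0381 CPM.

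Aldh1a1 had fewer reads and Aldh1a3 the fewest of the 3. Aldh1a1 (chromosome 19, 20492715 to 20643465, plus strand) had 343 and 401.5 counts under the Fgf9_null label and 344 and 401.5 under the Fgf9_het label, or 17.7 ± 0.0615 CPM. Aldh1a3 (chromosome 7, 66390890 to 66427517, minus strand), an enzyme known from epithelia, had 170.3 and 136.6 counts under both labels, or 7.41 ± 1.92 CPM. After division by the length of all annotated exons of a gene, Aldh1a2 stood at 21.1 ± 0.22 CPM per kb, Aldh1a1 at 3.59 ± 0.0125 and Aldh1a3 at 1.61 ± 0.417 CPM per kb. On that scale Aldh1a2 made up 80.3 ± 1.09% of the 3 genes' sum, Aldh1a1 13.6 ± 0.349% and Aldh1a3 6.07 ± 1.44%. With the longest protein-coding transcript as the length, the share of Aldh1a2 was 68.6 ± 0.98% and that of Aldh1a1 24.4 ± 0.662%. The order of the 3 genes was the same on both lengths and in both libraries.

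Aldh1a7 had more reads than Aldh1a1. It encodes a rodent paralogue of Aldh1a1, is outside the member list and was added after its values were seen. Whether its product acts on retinal was not tested, so its share below is one of RNA only. The gene (chromosome 19, 20692953 to 20727562, minus strand) had 1037 and 1122.5 counts under the Fgf9_null label and 1040 and 1122.5 under the Fgf9_het label, or 51.6 ± 2.68 CPM. Per kb of exon it stood at 25.9 (library 2) and 24.1 CPM (library 3), and its mean was 6.96 times Aldh1a1 over all exons and 3.32 times Aldh1a1 over the longest protein-coding transcript. With Aldh1a7 counted in the family, its share of the sum per kb of exon was 48.7 ± 0.682%, and those of Aldh1a2, Aldh1a1 and Aldh1a3 were 41.2 ± 1.11%, 7.01 ± 0.272% and 3.11 ± 0.698%.

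**Figure D1:**
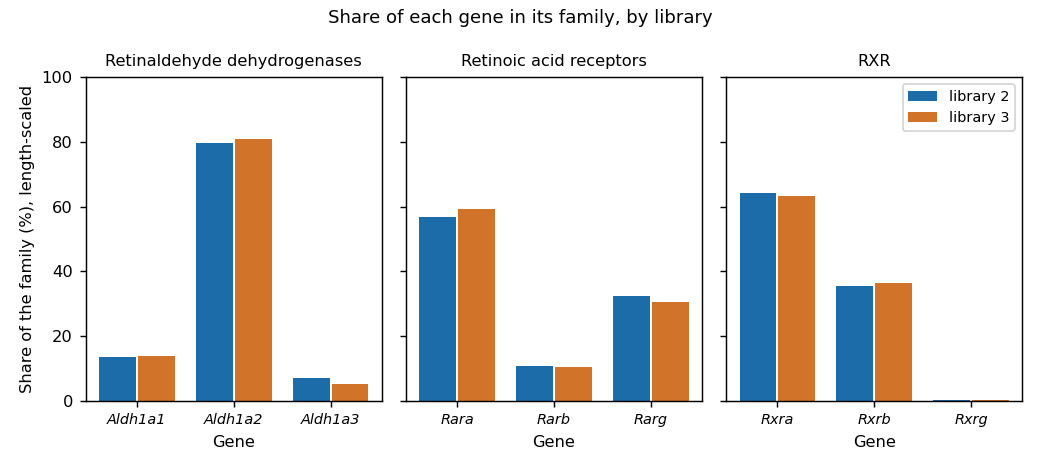
Share of each gene in the length-scaled sum of its family (CPM per kb of exon, in percent) for the retinaldehyde dehydrogenases, the retinoic acid receptors and the RXR genes. Bars give library 2 and library 3. Aldh1a2 holds 79.5% and 81.0% of its family, which is drawn without Aldh1a7 (with it, 40.4% and 42.0%), Rara 56.7% and 59.1%, and Rxra 64.2% and 63.2%.

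Crabp1, a small protein that binds retinoic acid in the cytoplasm, had few reads but a short transcript. It had 314 and 375 counts in replicates 2 and 3 under both labels, or 16.4 ± 0.306 CPM, over 802 bases of exon (chromosome 9, 54764748 to 54773110, plus strand). Per kb it stood at 20.4 ± 0.381 CPM, close to Aldh1a2. The counting intervals of Crabp1 (18.0 to 22.5 and 18.7 to 22.9 CPM per kb) overlapped those of Aldh1a2 (19.9 to 22.7 and 19.7 to 22.2 CPM per kb), so the 2 levels could not be told apart at this depth. Its relative Crabp2, which carries the acid to the nucleus, had 34 and 51 counts in libraries 2 and 3 and made up 6.9 ± 1.03% of their joint length-scaled level.

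Cyp26b1, which oxidises retinoic acid, was the lowest member. It had 105 and 91 counts in replicates 2 and 3 under both labels, or 4.72 ± 0.975 CPM (chromosome 6, 84571414 to 84593908, minus strand). The other Cyp26 genes were near the detection floor of 3 counts. Cyp26a1 had 1 and 2 counts in libraries 2 and 3, and Cyp26c1 had 4 and 1. Per kb, Cyp26b1 held 89.5 ± 2.8% of the sum of the 3 Cyp26 genes.

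Among the receptor genes the order per length was Rara, then Rarg, then Rarb. Rara (chromosome 11, 98927818 to 98974942, plus strand) had 1968.2 and 2308.5 counts under the Fgf9_null label and 1969.2 and 2310.5 under the Fgf9_het label, or 102 ± 0.613 CPM. Rarg (chromosome 15, 102234938 to 102257517, minus strand) had 1100 and 1162 counts against 1100 and 1164, or 54.1 ± 3.65 CPM. Rarb (chromosome 14, 16430839 to 16819156, minus strand) had 449.5 and 486.5 counts under both labels, or 22.4 ± 1.14 CPM. Per kb of exon the receptor genes stood at 23.3 ± 0.14 CPM for Rara, 12.7 ± 0.857 for Rarg and 4.25 ± 0.216 for Rarb, with no overlap between the libraries of different genes. Rara made up 57.9 ± 1.68% of the receptor sum, Rarg 31.5 ± 1.38% and Rarb 10.5 ± 0.302%.

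The count of Rarb is less certain than those of the other receptors. Exons of Top2b, on the opposite strand, overlap those of Rarb, and 32.1% of the 31-base words of Rarb transcripts also occurred in Top2b. Top2b, which encodes a DNA topoisomerase, stood at 170 ± 4.98 CPM, and the strand setting of the counting is not given in the sources used here. Rarg shared no 31-base word with another gene and Rara 0.277%. The coding sequences of the receptors were 72.7% to 75.4% identical in pairs.

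The receptors act on DNA as pairs with an RXR protein. Among the RXR genes, Rxra stood at 24.2 ± 0.128 CPM per kb and Rxrb at 13.7 ± 0.48, while Rxrg had 3 and 7 counts in the 2 libraries. Rxra and Rxrb made up 63.7 ± 0.723% and 36.0 ± 0.601% of the RXR sum.

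Ordered per kb of exon, the members ran from Rara through Aldh1a2, Crabp1, Rarg, Rdh10 at 7.71 ± 0.303, Rarb, Aldh1a1 and Aldh1a3 to Cyp26b1 at 0.882 ± 0.182 CPM per kb. Between neighbours the libraries did not overlap, but the step from Aldh1a2 to Crabp1 was 1.03-fold and that from Rara to Aldh1a2 1.10-fold. Counting intervals overlapped for Rara and Aldh1a2 in library 2 alone (22.2 to 24.3 and 19.9 to 22.7 CPM per kb). Those of Rarb and Aldh1a1 overlapped in library 3 alone (3.73 to 4.47 and 3.26 to 3.98 CPM per kb). With the longest protein-coding transcript as the length, Aldh1a1 (7.53 ± 0.0261 CPM per kb) passed Rarb (7.19 ± 0.367), and the rest of the order was the same. Without division by length Crabp1, at 16.4 CPM, was the third from last.

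**Figure D2:**
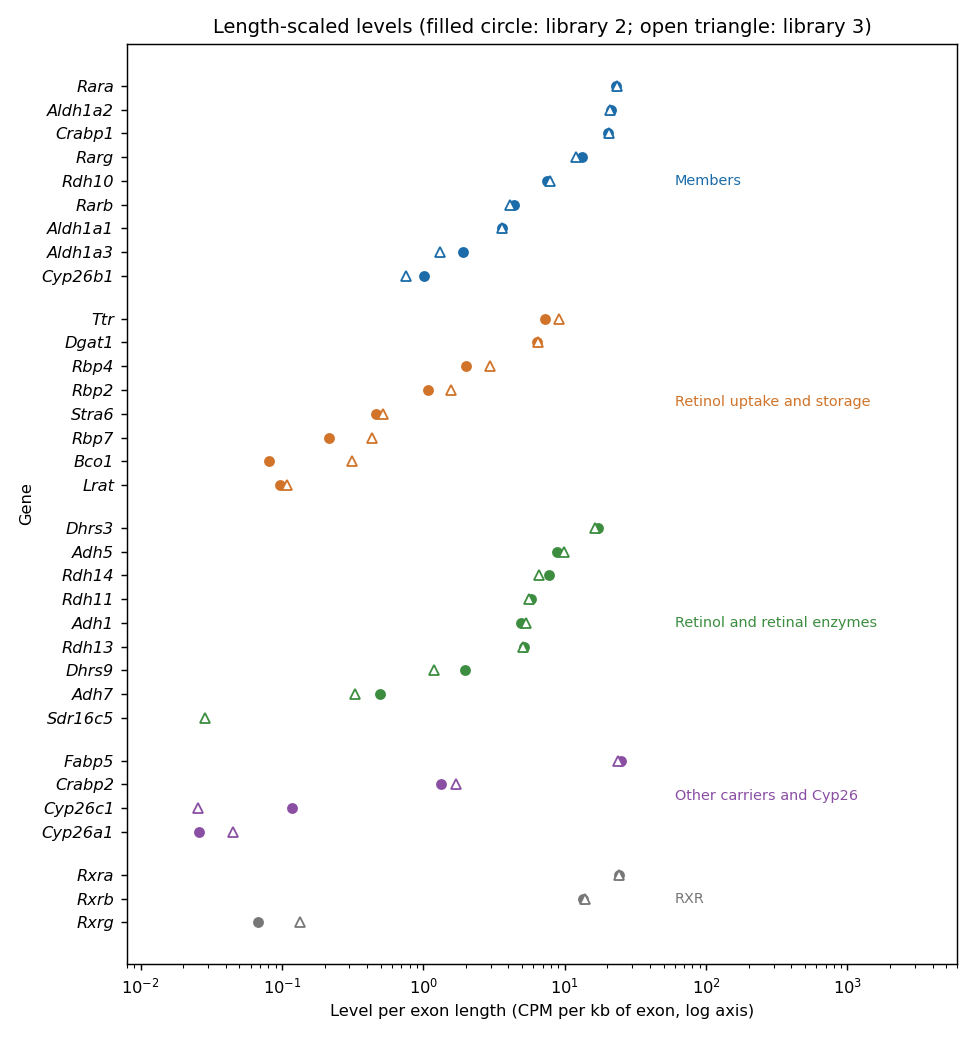
Level per kb of exon (CPM per kb, log axis) of the members and of 4 further groups of retinoid genes in library 2 (filled circles) and library 3 (open triangles). Members span from 0.753 (Cyp26b1, library 3) to 23.4 CPM per kb (Rara, library 3). A value of 0 cannot be drawn on a log axis, so Sdr16c5 has no circle.

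The comparison the study was set up for, Fgf9_null against Fgf9_het, left all 9 genes at nearly the same level under both labels. By edgeR's quasi-likelihood test at an adjusted p under 0.05, 0.0% of 19987 genes were called (0 genes), and 0 of the 9 members, all of which could be tested. DESeq2 called 0.015% of genes (3 genes: Rn7s1, Rn7s6 and Gm19220) and 0 members, and edgeR with the replicate number as a block 0.03% (6 genes) and 0 members. That blocked count depends on the form of edgeR's test: with its legacy setting off, an alternative added after seeing the data, 5.89% were called (1178 genes, whose absolute log2 folds had a median of 0.00597) and again 0 members. An unadjusted edgeR p under 0.05 was reached by 4 genes and by 0 members. Log2 folds of the members ran from -0.00173 (SE 0.0322) for Aldh1a1 to 0.000355 (SE 0.287) for Aldh1a3, each with an edgeR adjusted p of 1. Of the 44 further genes of the pathway, 35 could be tested. The unblocked edgeR test on all 4 columns called 0 of them, with a largest absolute log2 fold of 0.00342. With the block and the legacy setting off, edgeR called 1 of the 35. Since same-numbered columns hold the same library, these values compare each library with itself and do not measure an effect of Fgf9.

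**Figure D3:**
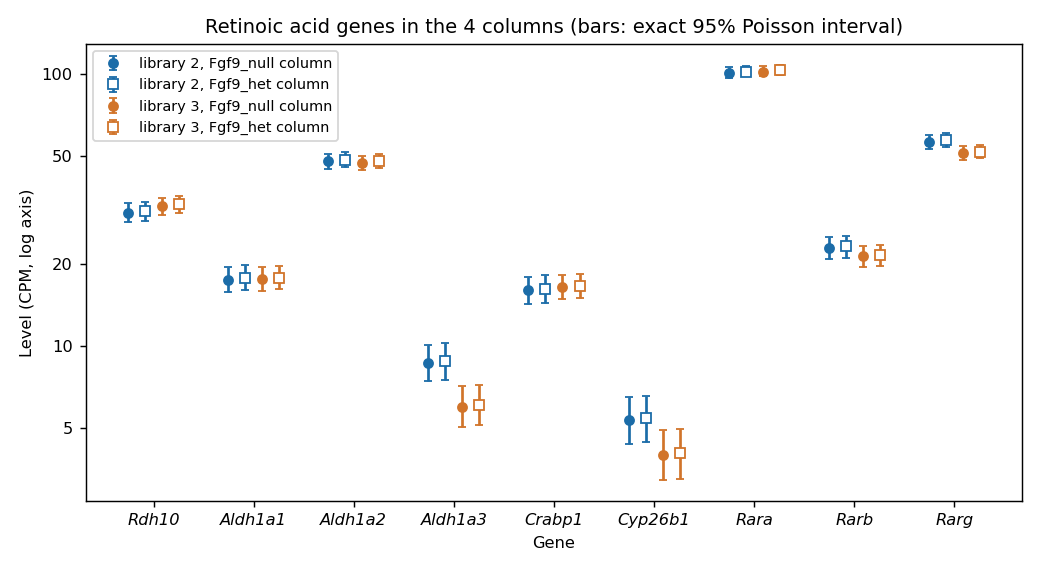
Level of each retinoic acid gene (CPM, log axis) in the 4 columns, with exact 95% Poisson intervals. Circles are columns labelled Fgf9_null and squares those labelled Fgf9_het. Same-numbered columns coincide for every gene, and the libraries stand apart for Aldh1a3, at 8.77 CPM (library 2) against 6.05 CPM (library 3).

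Between the 2 libraries most members were alike, and Aldh1a3 and Cyp26b1 were lower in library 3. Aldh1a3 went from 8.77 CPM (library 2) to 6.05 CPM (library 3), a ratio of 0.69 (exact 95% counting interval 0.549 to 0.873). Cyp26b1 had 5.41 and 4.03 CPM, a ratio of 0.745 (0.556 to 0.996). Rarg was next, at 56.7 and 51.5 CPM and a ratio of 0.909 (0.836 to 0.988). The intervals of the other 6 members included 1, and their ratios lay between 0.93 for Rarb and 1.06 for Rdh10. How many of all genes have an interval that excludes 1 was not counted, so Aldh1a3, Cyp26b1 and Rarg are not shown to stand apart. Over all genes but the 4 left out above, the libraries differed by more than counting error (chi-square per degree of freedom 5.49 or 5.5). The intervals of Cyp26b1 and Rarg end close to 1, so whether they exclude it depends on how library size is scaled. With 1 sample on each side there is no replicate check and no test.

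The same ratio was taken for every gene that reached 1 CPM in the 2 libraries (16712 genes, all 9 members among them). No member passed 1.5-fold, as 3.88% of all genes did (2.52% lower and 1.36% higher in library 3). None passed 2-fold either, as 0.521% did (0.317% lower and 0.203% higher). At a milder threshold of 25% higher or the reciprocal, 2 of 9 members passed, Aldh1a3 and Cyp26b1, beside 14.6% of all genes; both were on the lower side, as were 9.46% of all genes, while 5.18% were on the higher side. The median ratio was 0.985 over the members and 0.989 over all genes, with 5 members lower and 4 higher in library 3.

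Markers of several other cell types also differed between the libraries, and the forestomach squamous list was the one with the most genes past 1.5-fold, 5 of 6. All 6 squamous markers were lower in library 3, with sums of 643 and 347 CPM and ratios from 0.496 to 0.771. Krt13 had 145 and 74.2 CPM, and Trp63, which encodes a transcription factor of squamous epithelium, had 21.9 and 12.8 CPM. Columnar epithelial markers summed to 1928 and 1955 CPM. Skeletal muscle markers had a ratio of 0.659 between the summed CPM, but only 2 of 5 reached 1 CPM in both libraries. Acta1 had 5.15 and 2.35 CPM, and Ckm a ratio of 0.833 with an interval that includes 1 (0.663 to 1.05). Another 2 of the list were under 3 counts in both. The mesothelial marker Upk1b (7.06 and 3.21 CPM) and the glial marker S100b (2.63 and 1.46 CPM) were lower in library 3. Their full lists summed to 161 and 150 CPM (mesothelium) and to 136 CPM in each library (enteric neurons and glia). In each of these lists 2 of the 6 genes were higher in library 3. Erythroid markers were higher in library 3, with sums of 803 and 1004 CPM. No squamous marker was at 0 in either library. The part of any of these cell types in the values of Aldh1a3 and Cyp26b1 was not tested.

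**Figure D4:**
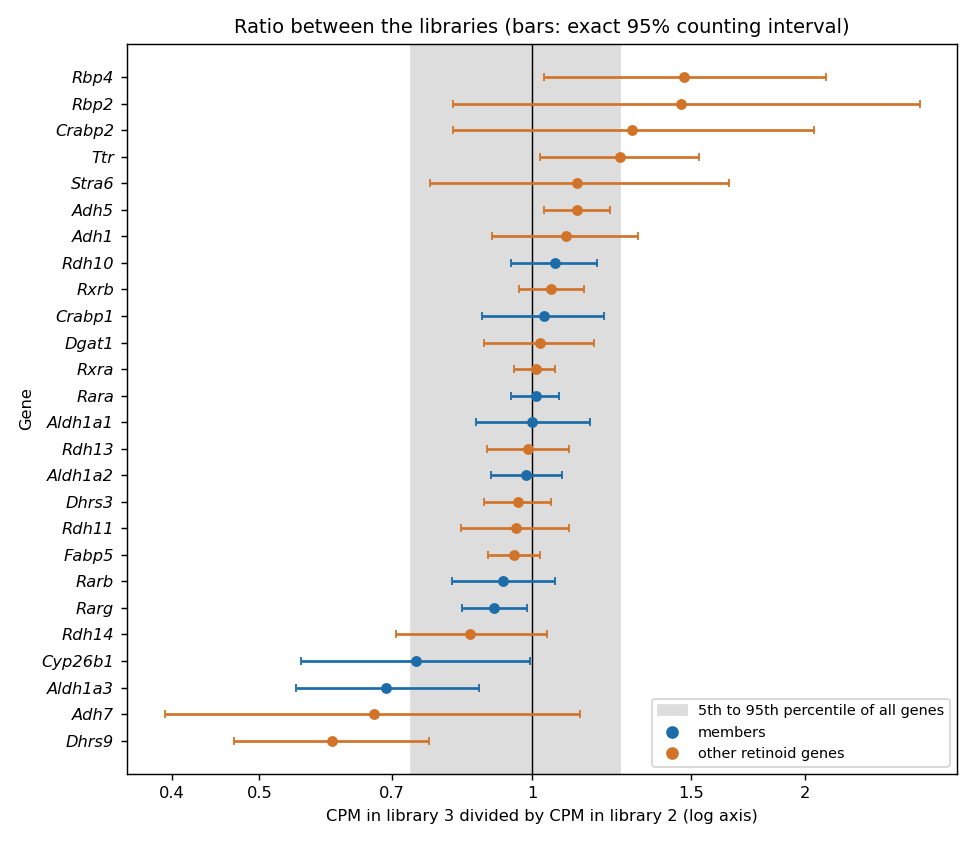
CPM in library 3 divided by CPM in library 2 (log axis) for the members and for the other retinoid genes that reached 1 CPM in each library, with exact 95% counting intervals. The grey band spans the 5th to 95th percentile of all genes and starts at 0.736. Among members Aldh1a3 (0.69) lies below the band, with Dhrs9 (0.601) and Adh7 (0.669) among the other genes.

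Of the 44 further pathway genes, 33 reached 1 CPM in both libraries. Other enzymes between retinol and retinal were headed in CPM by Adh5 at 50.5 ± 4.05 and Dhrs3, which turns retinal back into retinol, at 49.2 ± 1.2 CPM. Per kb of exon Dhrs3 stood at 16.8 ± 0.412 CPM, above the 7.71 ± 0.303 CPM of Rdh10, the enzyme of the forward step. Dhrs9, a retinol dehydrogenase, was the 1 gene of these 33 to pass 1.5-fold, beside 3.88% of all genes. It went from 8.4 CPM (library 2) to 5.05 CPM (library 3), a ratio of 0.601 (0.469 to 0.769). Adh7, the alcohol dehydrogenase typical of stomach and oesophageal lining, had 36 and 28 counts and a ratio of 0.669 (0.393 to 1.13), an interval that includes 1. Both had their higher value in library 2, as did 54.2% of all genes that reached 1 CPM in both libraries.

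Genes of retinol uptake, transport and storage were on the other side, though not all beyond counting error. All 5 genes of that list (of 8) that reached 1 CPM were higher in library 3, with ratios from 1.02 to 1.47, as were 45.8% of all genes. The counting intervals of Dgat1, Stra6 and Rbp2 included 1, and those of Rbp4 and Ttr did not. Dgat1, an acyltransferase, had 19.6 and 19.9 CPM, a ratio of 1.02 (0.886 to 1.17). The serum carriers Rbp4 and Ttr, known as products of the liver, were higher too, Rbp4 with a ratio of 1.47 (1.03 to 2.11) and Ttr with 8.63 and 10.8 CPM. Liver markers were also higher in library 3 and summed to 26.6 and 47.6 CPM, with Alb at 4.38 and 11.8 CPM, and none of the 6 was at 0 in both libraries. Their part in the levels of Rbp4 and Ttr was not tested.

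Fatty acid binding protein Fabp5, an alternative carrier of retinoic acid, stood at 87.7 ± 2.84 CPM. The listed coactivators and corepressors of the receptors were all above 1 CPM in both libraries, among them the acetyltransferase Crebbp at 353 ± 12.9 CPM. Their ratios between the libraries ranged from 0.928 to 1.05, and 0 of 7 passed the milder threshold, beside 14.6% of all genes.

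Genes known to respond to retinoic acid were spread over the whole range. Of 13, 9 reached 1 CPM in both libraries, and Cdx1 had no counts. Tgm2, a transglutaminase, stood at 227 ± 10.6 CPM. The homeobox gene Meis2 stood at 174 ± 3.46 CPM, and the orphan nuclear receptors Nr2f2 and Nr2f1 at 144 ± 6.02 and 98.4 ± 1.3. Exons of other genes overlap those of Tgm2 (1003 bases), Nr2f2 (643) and Nr2f1 (123), so these counts are uncertain. None of the 9 passed the milder threshold between the libraries, beside 14.6% of all genes. Their ratios ran from 0.876 to 1.09, with a median of 1.03.

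Rarb and Cyp26a1 are classical targets of the receptors, and RefSeq promoter windows (GRCm38.p6, 250 bases before to 50 bases after a gene start) were searched for the receptors' element. Because both were known as targets before the search, a match in either gene is no independent result. The motif, called DR5, is a direct repeat of half-sites (AGGTCA or AGTTCA, or else GGGTCA or GGTTCA) with 5 bases between them, sought on both strands. It occurred in 0.0974% of 32851 windows. Among the members, 7 of 9 have a window (12 windows in all; none for Aldh1a3 and Rdh10), and Rarb alone held a match. With the members included, only 37 pathway genes have a window (56 windows in all), and of the further genes Cyp26a1 held a match. Both are shown 5′ to 3′ on the strand of the gene, with half-sites in capitals; that of Cyp26a1 reads on the opposite strand.
Rarb: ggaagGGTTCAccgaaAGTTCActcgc
Cyp26a1: aaagaTGAACTttgggTGAACTaattt
The first lies at chr14:16575508-16575534, within annotated Rarb exon sequence, since 4 of 7 Rarb transcripts start farther upstream, and the match ends 36 bases before the RefSeq start. The second lies at chr19:37697771-37697797, outside annotated Cyp26a1 exons, and ends 15 bases before the RefSeq start. The 2 genes differed in level, with 22.4 ± 1.14 CPM for Rarb and 1 and 2 counts for Cyp26a1. Direct repeats of the same half-sites with 2 bases between them (DR2, 0.268% of windows) or 1 base (DR1, 0.222%) occurred in no member's window; among the further pathway genes, Bco1 held a DR1 match.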

How the data were processed

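Per the labels' protocols, ribosomal RNA was removed from stomach RNA, and random-primed cDNA was sequenced from both ends. Tools listed, without roles, in the submitters' processing notes are Salmon 1.8.0, Trimmomatic 0.33, FastQC 0.10 and edgeR (builds GRCm38 and mm10). Not given in the sources used here were annotation release and strand setting. The authors deposited estimated counts for each Ensembl gene, without depth scaling. The table has 2 further columns of values without a name, which no label assigns to a sample and which were not used. Whether each header name stands over its own column is not settled.

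CPM is the estimated count divided by the column total. Same-numbered columns were averaged, and mean ± SD is over 2 libraries; within a number, the columns' deviations from the group means had a correlation of 0.999 over genes, so the numbers pair columns of 1 library. Rounded counts were tested with edgeR 4.0.16 (TMM, filterByExpr, quasi-likelihood F test in its legacy form, Benjamini-Hochberg over all genes, threshold 0.05). This test was tried on simulated data with independent columns, so the trial does not cover columns that repeat a library. DESeq2 1.42.0 and limma-voom 3.58.1 were alternatives. These p-values measure only the spread between columns. Exon lengths, positions and transcripts come from GENCODE M21, where 50870 of 51098 identifiers were found. Intervals (95%) and the floor of 3 counts, 0.155 and 0.133 CPM in libraries 2 and 3, cover counting error only.

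Members and lists were chosen with earlier results of these data known. The text names all members, the 4 highest genes of each further pathway list or some of them, genes past 1.5-fold, and leading cell type markers; Aldh1a7, Top2b, Casc4, Adh7, Trp63, Upk1b, S100b, Ptf1a, Ins2, Gcg, Stra6, Rbp2, Bco1 and Cdx1 were picked after their values were seen. In the further pathway lists, 2 genes are not reported here and enter no count of those lists. With 2 libraries no gene of like pattern could be named.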

Additional observations from a re-analysis of the deposited data

How the results depend on the processing

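Against 0 genes called between the labels by edgeR, DESeq2 called 3 and edgeR with the replicate block 6, while edgeR with DESeq2's size factors, limma-voom and edgeR without a filter called 0. With its legacy setting off, added after seeing the data, edgeR called 0 without the block and 1178 with it. The block pairs each library with itself. Leaving out 1 column gave 1 to 2 calls, all of them Rn7s6 or Gm19220; the group left with 1 column is then assumed to vary as the other does. None of these settings called a member; without 1 column the members' log2 folds ran from -0.271 to 0.272, because the libraries are then present in unequal numbers. At the milder threshold of 25%, 2 members differed between the libraries and at 2-fold 0, against 0 at 1.5-fold. Members' levels were 1.05 times as high with rRNA, 7SL, 7SK and mitochondrial genes left out of the totals, and 1.22 times with Gm26917 and Gm42418 left out too, an alternative chosen after seeing the data. Ratios between the libraries stayed within their counting intervals under all 3 other library sizes, with Aldh1a3 at 0.686 to 0.699. The intervals themselves were set with the plain column totals only. Those of Cyp26b1 and Rarg end close to 1, at 0.996 and 0.988. With TMM-scaled library sizes the ratios of Cyp26b1 and Rarg were 0.755 and 0.921, against 0.745 and 0.909. An interval moves by the same factor as its ratio, so that of Cyp26b1 would then include 1. The interval of Rarg would end very near 1, so whether it excludes 1 depends on the scaling. Exon length moved 6 of 9 length-scaled levels by more than 1 SD. Depth limits Cyp26a1, Cyp26c1 and Rxrg, and 2 independent libraries limit every comparison.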
